A study of Homo sapiens with 4 samples.

Results

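The myeloid hairpins miR-223 and miR-142 were followed through ERH knockdown by the reads of both of their arms. The rows were hsa-miR-223-3p and hsa-miR-223-5p on the one side, with hsa-miR-142-3p and hsa-miR-142-5p on the other. These 4 mature miRNAs were taken by name from 2366 human miRNA rows, and all 4 passed the filter on low counts that left 464 tested miRNAs. Small RNAs had been sequenced from K562, an established human chronic myeloid leukaemia line, carrying dCas9-KRAB, a nuclease-dead Cas9 fused to a repressor (CRISPR interference). All libraries came from polyclonal lines with an inducible system and 1 of 2 guide RNAs against ERH. The ERH knockdown cells received 0.05 µg/ml doxycycline, the control cells of the same lines received none, and RNA was taken on day 5, giving 2 libraries per group, 1 per guide RNA. No library with doxycycline and without an ERH guide RNA was analysed here, so an effect of the drug and an effect of the guide cannot be told apart. Small-RNA libraries do not measure ERH mRNA, and how far it was reduced was not checked.

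A primary miRNA transcript folds into hairpins that the Microprocessor (Drosha with DGCR8) cuts out of it, and Dicer then removes the loop. One strand of the remaining duplex, from the 5p or the 3p side, is kept by Argonaute, and the other is mostly lost. ERH is a small conserved protein that binds DGCR8 and is known for helping the processing of poor hairpins that lie beside a good one. miR-223 is a miRNA of granulocytes and monocytes that restrains neutrophil production and inflammatory signalling, with the 3p strand as its main product. miR-142 is made throughout the blood lineages and yields an abundant strand from each side of its hairpin.

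The mature sequences are shown because the seed, the part that pairs with target mRNAs, defines what each arm can recognise. They are from RefSeq (GRCh38.p14), 5′ to 3′, with bases 2 to 8 in capitals.
miR-223-3p: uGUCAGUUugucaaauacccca
miR-223-5p: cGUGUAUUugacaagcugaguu
miR-142-3p: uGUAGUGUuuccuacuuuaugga
miR-142-5p: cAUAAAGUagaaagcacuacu
The 4 seeds all differ. No other miRNA of the RefSeq table shares the seed of miR-223-3p, miR-223-5p or miR-142-3p, and miR-142-5p shares its seed with 1 other, miR-5590-3p, which was not among the tested miRNAs. Both 3p arms begin with U and both 5p arms with C.

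The hairpins are shown because the comparison of arms rests on them, with the 2 mature arms in capitals.
MIR223: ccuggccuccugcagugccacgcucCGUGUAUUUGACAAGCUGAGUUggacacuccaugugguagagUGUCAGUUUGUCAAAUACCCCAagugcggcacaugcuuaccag
MIR142: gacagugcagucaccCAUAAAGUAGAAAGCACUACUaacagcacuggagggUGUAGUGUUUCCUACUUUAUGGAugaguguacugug
MIR223 lies on the plus strand of chromosome X at 66018870-66018979, within an exon of the noncoding RNA gene AL034397.3 (GRCh38, GENCODE 29). The nearest other miRNA gene on its strand, MIR676, is 4003878 bases away. MIR142 lies on the minus strand of chromosome 17 at 58331232-58331318, within the single-exon noncoding gene AC004687.1 and opposite an intron of TSPOAP1-AS1. Its nearest neighbour on the strand, MIR4736, is 4658 bases away, and miR-4736 had 0 reads in all 4 libraries. By RNAfold the MIR142 hairpin had a fold energy of -44.3 kcal/mol, or -0.51 per base. The MIR223 hairpin had -47.4 kcal/mol, or -0.43 per base, where the median of 739 RefSeq hairpins with both arms was -0.47 per base. In the predicted fold 7 of the 22 bases of miR-223-5p were unpaired, against 2 of the 21 bases of miR-142-5p and 3 bases in each 3p arm. The letters UGU, a motif of the apical loop linked to DGCR8, occur between the arms of MIR223 and not between those of MIR142, and 33.7% of the 739 hairpins hold them there (given strand only). Such a match is a description of the letters and not a functional site.

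The libraries held 1430434 to 2476700 miRNA reads, and added spike-in RNAs (frog miR-427 and fly miR-14) gave 20.0 to 32.3 reads per 1000 miRNA reads. Erythroid and megakaryocytic miRNAs that mark this line (miR-451a, both arms of miR-144 and of miR-486, and miR-126-3p) were all present and summed to 5.07% to 5.14% of reads in controls and 6.35% to 6.54% after knockdown. These are shares of unscaled reads, and the 6 did not move as 1. With the scaling used below, both miR-144 arms were called higher and miR-486-5p was not called. The other 3, miR-451a, miR-486-3p and miR-126-3p, were called lower. Of all tested miRNAs 25.2% were called lower and 25.6% higher. The lymphoid miRNAs miR-150-5p and miR-155-5p had at most 3 reads in any library. Of 12 miRNAs of other cell types 9 had a row. They summed to 0.108% to 0.113% in controls and 0.164% to 0.167% after knockdown. The 4 that passed the filter were not absent. They were miR-145-5p of smooth muscle and fibroblasts (1066 to 2684 reads per library) and miR-9-5p of neurons (419 to 884). The others were the epithelial miR-200c-3p (69 to 194) and miR-141-3p (57 to 141). Of these 4, miR-145-5p and miR-200c-3p were called higher with the scaling used below, and 2 were not called. miR-206 of muscle was at 0 in every library, and the part of these miRNAs in the results was not tested. In such bulk RNA, fewer cells making a miRNA and less of it per cell cannot be told apart. Each library was 1 culture, and the p-values therefore describe the variation among the 4 libraries, which may be technical.

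Both hairpins were among the main sources of the miRNA reads, and the 4 arms together took 10.2% to 11.1% of reads in the rows present. Some mature miRNAs, among them miR-21-5p and miR-424-5p, had no row, so shares and ranks are relative to the rows present. In controls miR-142-3p ranked 5th of the tested miRNAs by mean level, miR-223-3p 6th, miR-142-5p 9th and miR-223-5p 79th. The order of the 4 levels was the same in each library, with no overlap between arms within a group. CPM below are reads scaled to a common library total after TMM, which aligns the bulk of miRNAs between libraries. Read counts of different miRNAs also depend on how well each sequence is ligated and amplified, so levels were compared mainly within a miRNA.

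Relative to that bulk, all 4 arms fell after ERH knockdown with both guide RNAs: the 3 abundant arms by about the same amount, and the minor arm miR-223-5p far more. For miR-223-3p, knockdown libraries of guide RNAs 1 and 2 held 62248 and 70414 reads and their controls 44149 and 76345. Scaled, that was 23650 and 25709 CPM after knockdown against 35017 and 36836 CPM in controls. Both knockdown libraries lay below both controls, as they did for 34.9% of tested miRNAs. The fall of miR-223-3p was 0.54 ± 0.05 in log2 units (SE of the fit, n = 2 per group), to 68.7% of control (edgeR quasi-likelihood test, adjusted p = 7.37e-07). miR-223-5p, the opposite strand of the same hairpin, was read 781 and 856 times in the knockdown libraries against 1343 and 1740 times in controls. It stood at 297 and 313 CPM after knockdown, close together, and at 1065 and 840 CPM in controls, which were farther apart and well above. The fall was 1.64 ± 0.10 on the log2 scale, to 32.2% of control (edgeR, adjusted p = 2.43e-09), and 7 of the 464 tested miRNAs had a lower value.

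The arms of miR-142 fell in parallel. For miR-142-3p the knockdown libraries held 126166 and 132339 reads and the controls 84597 and 151359, or 47934 and 48318 CPM against 67098 and 73030 CPM. The knockdown libraries were nearly equal to each other and both were below the controls. Its fall was 0.54 ± 0.05 on the log2 scale, to 68.7% of control (edgeR, adjusted p = 5.42e-07). For miR-142-5p the corresponding reads were 38392 and 42481 against 28735 and 44557, or 14586 and 15510 CPM against 22791 and 21499 CPM, again with no overlap. It fell by 0.56 ± 0.05, to 68.0% of control (edgeR, adjusted p = 5.22e-07). So 4 of the 4 arms were called lower (adjusted p under 0.05), where 25.2% of tested miRNAs were called lower, 25.6% higher and 50.9% in either direction. The arms of 1 hairpin share their source and are not independent.

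**Figure D1:**
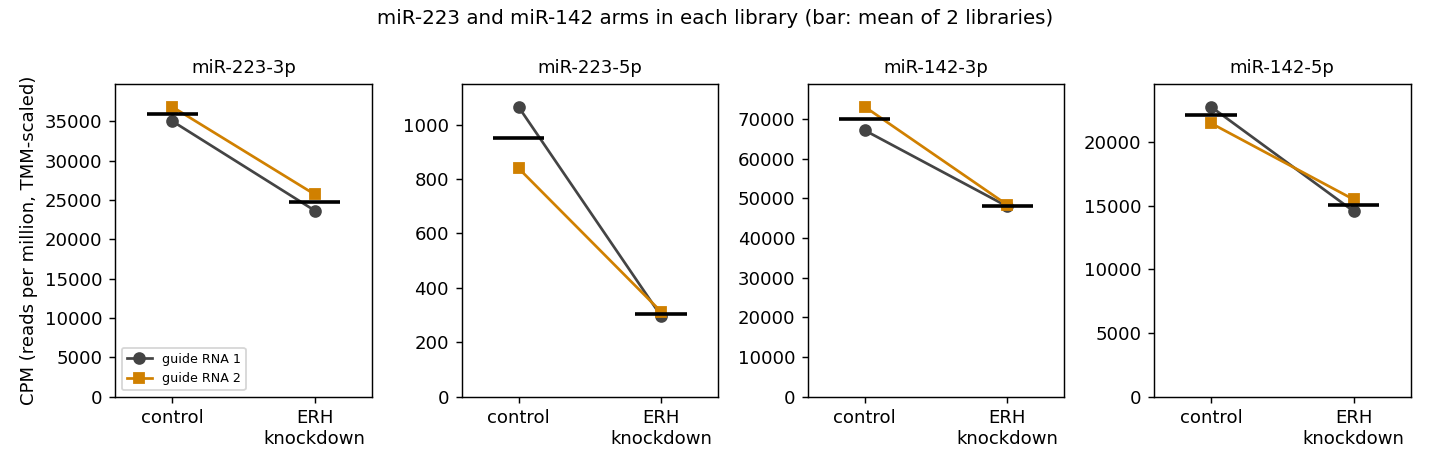
TMM-scaled CPM of each arm (vertical axes from 0, each with its own range) in the control and ERH knockdown libraries; lines join the libraries of 1 guide RNA and black bars are means of 2 libraries. Every arm was lower after knockdown within both guide RNAs, and miR-223-5p dropped from 1065 and 840 to 297 and 313 CPM.

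Within guide RNA 1, knockdown differed from control by -0.57 for miR-223-3p, -0.49 for miR-142-3p and -0.64 for miR-142-5p on the log2 scale. Within guide RNA 2 the values were -0.52, -0.60 and -0.47 in the same order. The order of the 3 arms thus differed between the guide RNAs. miR-223-5p differed by -1.84 with guide RNA 1 (95% counting interval -1.97 to -1.72) and by -1.43 with guide RNA 2 (-1.55 to -1.31). These intervals cover counting error only and do not overlap. With 1 library per guide RNA and condition, whether the guide RNAs differ beyond the spread of cultures could not be tested.

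The fall of the 3 abundant arms was of the size seen in other abundant miRNAs. Of 18 miRNAs with a control mean of at least 10000 CPM, a level chosen after the values were seen, 18 were called lower and 0 higher, with a median of -0.51. miR-142-5p, miR-142-3p and miR-223-3p ranked 6th, 7th and 8th from the lowest among them, between miR-19b-3p (-0.58 ± 0.06) of the miR-17~92a-1 cluster and its neighbour in that cluster miR-20a-5p (-0.53 ± 0.05). The values in the set ran from -0.72 for miR-92a-3p to -0.17 for miR-93-5p. Of 158 miRNAs between 100 and 10000 CPM, 60 were called lower and 33 higher (median -0.09). Below 100 CPM 39 of 288 were called lower and 86 higher (median 0.30). miR-223-5p belongs to the middle class by its level, and its value of -1.64 was close to the lowest of that class, -1.78.

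**Figure D2:**
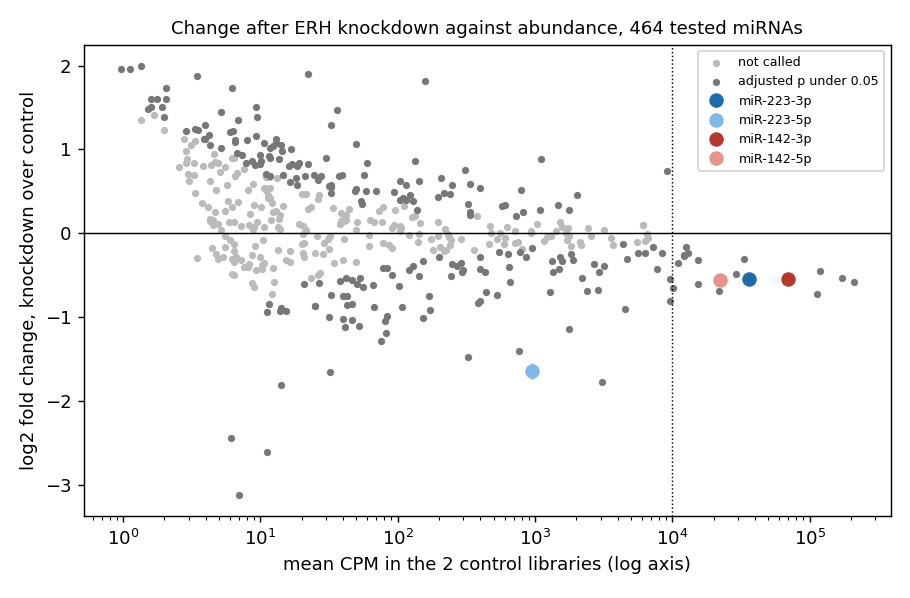
Log2 fold change (knockdown over control) against mean control CPM (log axis) for the 464 tested miRNAs; coloured points are the 4 arms with SE bars, and the dotted line marks 10000 CPM. The 3 abundant arms sit within the band of 18 abundant miRNAs, all below 0, while miR-223-5p at -1.64 lies near the lower edge of all points.

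The height of these values followed the scaling between libraries. The median of all tested miRNAs, 0.06 with TMM, shifted up by 0.44 when only library size was used and by 0.68 when the spike-ins were. With library size alone miR-223-3p stood at -0.10 ± 0.05 and was not called (edgeR, adjusted p = 0.062), while miR-142-3p (-0.10, adjusted p = 0.0491) and miR-142-5p (-0.12, adjusted p = 0.0489) only just passed. With the spike-ins the 3 arms were at 0.15, 0.14 and 0.14 with an SE of 0.39 each and were not called in the unblocked fit. With guide RNA as a replicate block added to spike-in scaling, a fit chosen after the data were seen, their values were 0.15 ± 0.05, 0.15 ± 0.05 and 0.13 ± 0.05, each called higher (edgeR, adjusted p = 0.0038, 0.0015 and 0.0143). Per 1000 spike-in reads there were 1052 and 1471 reads of miR-223-3p after knockdown and 957 and 1314 in controls, so the groups overlapped and each knockdown library exceeded its own control. How often the groups overlapped among all tested miRNAs on this measure was not counted. miR-223-5p had 13.2 and 17.9 reads per 1000 spike-in reads after knockdown against 29.1 and 29.9 in controls, with no overlap. Its fall with spike-ins was 0.93 ± 0.38 (edgeR, adjusted p = 0.0367), with the block 0.94 ± 0.09 (adjusted p = 5.21e-20), and by miR-14 alone, an alternative added after the data were seen, -0.64 ± 0.54 and not called. The spike-ins themselves did not keep a fixed ratio, with 7.78 and 9.82 reads of miR-427 per read of miR-14 after knockdown and 7.14 and 7.18 in controls. The sources used here do not state the amounts added per library, so spike-in scaling is given as an alternative only. Among the 18 abundant miRNAs, library size alone called 7 lower and 6 higher, and spike-in scaling called 0 in edgeR, or 14 higher and 0 lower with the block.

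**Figure D3:**
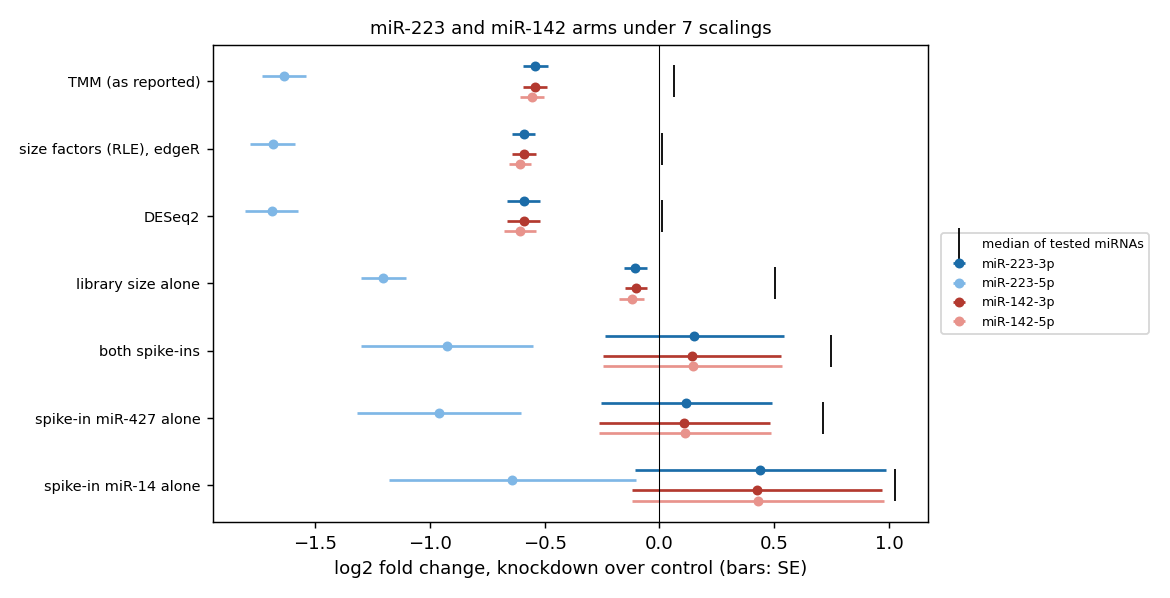
Log2 fold change of each arm (points, SE bars) under 7 scalings, with the median of the tested miRNAs as a black tick. The 3 abundant arms move together, for miR-223-3p from -0.59 (RLE) to 0.44 (spike-in miR-14 alone), and miR-223-5p stays below 0, from -1.69 (DESeq2 and RLE) to -0.64 (spike-in miR-14 alone).

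Ratios of reads within a library need no such scaling, and by them the abundant arms of the 2 hairpins kept a ratio within the spread between libraries, while the minor arm of miR-223 did not. The count of miR-223-3p per miR-142-3p was 0.493 and 0.532 after knockdown and 0.522 and 0.504 in controls. The groups overlapped fully, at 0.513 ± 0.027 after knockdown and 0.513 ± 0.012 in controls (SD, n = 2; exact two-sided permutation test, p = 1). With 2 libraries against 2, that test cannot give a p under 0.333. For both arms summed, the ratio of miR-223 to miR-142 was 0.395 ± 0.017 and 0.400 ± 0.002 (SD, n = 2). The count of miR-223-5p per miR-142-5p, in contrast, was 0.0203 and 0.0202 after knockdown against 0.0467 and 0.0391 in controls, 47.2% of control (exact permutation test, p = 0.333, the smallest possible).

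The arms of miR-223 parted after knockdown. miR-223-5p made up 1.24% of the reads of its hairpin after knockdown with guide RNA 1 (95% Clopper-Pearson interval 1.15% to 1.33%) and 1.20% with guide RNA 2 (1.12% to 1.28%). In controls its share was 2.95% (2.80% to 3.11%) and 2.23% (2.13% to 2.33%). The mean share was thus 1.22% ± 0.03 after knockdown and 2.59% ± 0.51 in controls (SD, n = 2), and there were 81.0 ± 1.8 reads of miR-223-3p per read of miR-223-5p after knockdown against 38.4 ± 7.8 in controls. The knockdown libraries agreed closely while the controls differed from each other beyond counting error. For miR-142 the 5p share was 23.3% and 24.3% after knockdown and 25.4% and 22.7% in controls, so the groups overlapped, at 23.8% ± 0.7 and 24.0% ± 1.8 (SD, n = 2). Of the 109 hairpins with both arms tested, 49.5% had both knockdown libraries outside the range of the controls, so that separation alone was common.

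In a fit across all 109 hairpins, the log2 ratio of 5p to 3p reads of miR-223 changed by -1.09 ± 0.19 (SE; 95% interval -1.60 to -0.58). In limma with 1 prior variance for all hairpins its adjusted p was 0.0839 (unadjusted 0.0031, 4th by p after miR-942, miR-3944 and miR-25), and 0 of 109 hairpins, 0%, passed, while 19.3% had an unadjusted p under 0.05. With a prior variance that follows read depth, 13 hairpins (11.9%) passed and miR-223 ranked 1st by p (limma, adjusted p = 2.50e-06). With guide RNA as a replicate block its adjusted p was 0.0064 (limma), but the SE rose to 0.30, the same as for miR-142. The blocked call thus did not come from a tighter estimate. With only hairpins whose arms both averaged at least 10 CPM the adjusted p for miR-223 was 0.0037, and with 1 added to each count 0.0667 (limma). So the call rests on the choice of variance and of hairpins while the size of the change does not. The change for miR-142 was -0.02 ± 0.15 (95% interval -0.42 to 0.39; adjusted p = 0.95), and -0.13 to 0.09 with the depth-dependent variance. The ratio of the miR-223 arm ratio to the miR-142 arm ratio was 0.0412 and 0.0379 after knockdown and 0.0896 and 0.0774 in controls, without overlap (exact permutation test, p = 0.333, the smallest possible). How common such a separation is among pairs of hairpins was not counted.

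Only 5 hairpins had a larger change in arm ratio: miR-3944 (-1.88), miR-520a (-1.83), miR-1343 (1.47), miR-942 (1.31) and miR-25 (-1.25). In the first 4 the less abundant arm averaged 7.5 to 21.5 reads per library, and in miR-25 it averaged 427. Among 16 hairpins whose less abundant arm averaged at least 1000 reads, a class set after the values were seen, miR-223 had the largest change, followed by miR-486 (0.65) and miR-30e (-0.43), and miR-142 was 15th. miR-126, another hairpin with 2 abundant arms, was at 0.02. Less abundant arms in general had the lower value in 63 of the 109 hairpins and the higher value in 46. The median difference between less and more abundant arm was -0.07, and -0.22 in the 38 hairpins whose less abundant arm held at most 5% of the reads, against -1.09 for miR-223.

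**Figure D4:**
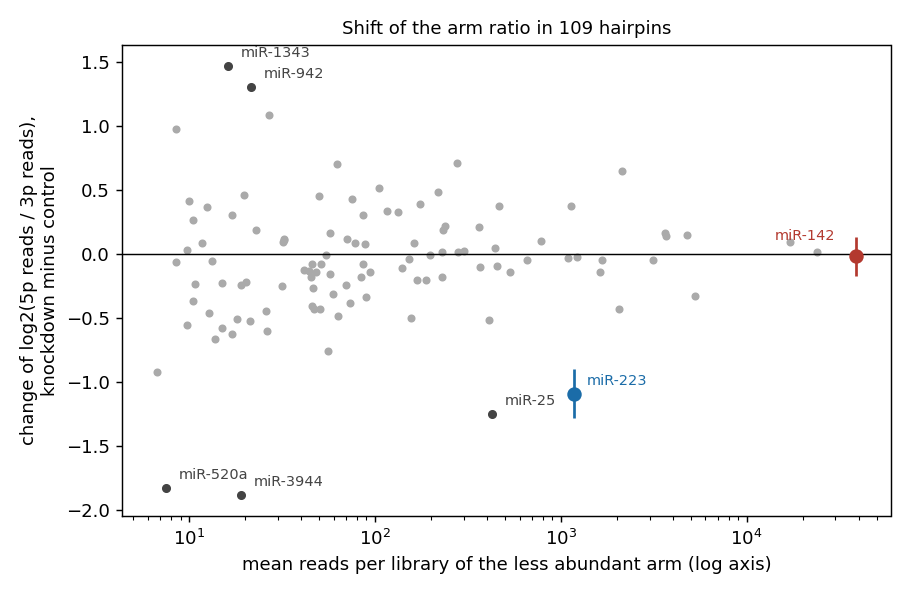
Change of log2(5p reads / 3p reads), knockdown minus control, against the mean reads of the less abundant arm (log axis), 1 point per hairpin (109); SE bars for miR-223 and miR-142, and names also for the 5 larger changes. miR-223 at -1.09 has the largest change among the 16 hairpins at 1000 reads or more, and miR-142 at -0.02 lies on the zero line.

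The miRNAs whose profile over the 4 libraries lay nearest were sought among 175 others with a mean of at least 100 CPM, by Euclidean distance of centred log2 CPM. For miR-223-3p they were miR-17-3p (distance 0.027), miR-20a-5p (0.046) and miR-451a (0.082). For miR-142-3p they were miR-378a-5p (0.047), miR-17-3p (0.059) and miR-19b-3p (0.069), and for miR-142-5p miR-16-2-3p (0.074), miR-20a-5p (0.077) and miR-15b-5p (0.094). The nearest profiles to miR-223-5p were those of miR-21-3p (0.032), miR-25-5p (0.212) and miR-1260b (0.335). miR-21-3p changed by -1.64 ± 0.10, miR-25-5p by -1.47 ± 0.10 and miR-1260b by -1.78 ± 0.07. miR-21-3p and miR-25-5p are, like miR-223-5p, known as the minor strands of their hairpins. The opposite strand of miR-21-3p, miR-21-5p, had no row, so its arm ratio could not be computed. With 4 libraries such a likeness says little beyond a similar difference between the groups.

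Other miRNAs of blood cells moved in both directions with TMM, and these counts shift with the scaling as above. Of 32 listed, 30 had a row and 21 were tested, of which 14 fell, 3 rose and 4 were not called. Of all tested miRNAs 25.2% fell and 25.6% rose. The list had a median of -0.33 against 0.06 for all tested miRNAs. It was not matched to them for level, and abundant miRNAs were called lower more often, as given above. The most abundant of the list were the erythroid miR-451a (-0.48 ± 0.05), miR-146b-5p, a regulator of innate immune signalling (-0.69 ± 0.06), and miR-126-3p of megakaryocytes and endothelium (-0.27 ± 0.05). The 3 that rose were miR-144-3p, miR-144-5p and miR-181a-5p. By annotation, of 255 tested miRNAs with no other miRNA gene within 10 kb on the strand, as for miR-223, 43 were called lower and 73 higher (median 0.16). Of 157 with such a neighbour, as for miR-142, 62 were called lower and 30 higher (median -0.16). These classes were not matched for level, and their counts rest on TMM. Whether a neighbour bears on the fall of either hairpin was not tested.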

How the data were processed

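The deposited values are raw read counts per mature miRNA, whole numbers in 4 tables without a header; the sources used here give no aligner, miRNA release, genome build or treatment of end variants. Groups and guide RNA numbers came from the labels. Spike-in rows were left out of totals and tests. In R 4.3.3, edgeR 4.0.16 was used to drop low miRNAs (filterByExpr at a count of 10 and a total of 15, leaving 99.9% of counts), to scale by TMM and to run the unblocked quasi-likelihood test. Benjamini-Hochberg adjustment covered all 464 miRNAs, with calls under 0.05. Arm ratios (0.5 added to each count; arms paired by name) were fitted with limma 3.58.1 over 109 hairpins. Each guide RNA has its own polyclonal line, which pairs the libraries by number. With TMM, deviations of same-numbered libraries from their group means had a correlation of -0.11. That correlation was not computed under other scalings. Libraries of 1 group differed by more than counting error (chi-square over its degrees of freedom was 3.93 for knockdown and 10.1 for control). A count of 0 allows 3 reads, or 1.10 to 2.38 CPM. Intervals of shares and of within-guide differences cover counting error only, since the labels name no molecular identifiers, and those of limma come from the variance between libraries.

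All 4 arms and 413 of 464 tested names matched the RefSeq miRNA table; hairpins were folded with RNAfold 2.7.2, and neighbours and hosts came from GENCODE 29. The named miRNAs follow a rule: the 4 arms, the 3 nearest profiles to each, the 5 largest arm shifts, and the 3 most abundant of the blood list; miRNAs named beside an abundance class or as the 3 that rose were added after their values were seen. Members, lists and tests were chosen with earlier results of these data known. The tests were also run on simulated counts whose changes were unrelated to level, unlike those seen here. That run does not bear on the choice of scaling. DESeq2 1.42.0 and plots by matplotlib 3.10.9 complete the tools. Alternatives were other scalings (spike-ins also together with the block), filters, DESeq2, a replicate block, pseudocounts, a depth-dependent variance and leaving out each library.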

Additional observations from a re-analysis of the deposited data

Results flagged for a closer look

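The guide RNAs moved some ratios in opposite directions. The log2 ratio of miR-142-5p to miR-142-3p changed by -0.16 with guide RNA 1 and by 0.12 with guide RNA 2. The count of miR-223-3p per miR-142-3p changed by -0.0285 and 0.0277, and for both arms summed by -0.0184 and 0.0091. With 1 library per guide RNA and condition, none of these differences between guide RNAs was tested.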

How the results depend on the processing

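miR-223-5p kept its fall and its call in 14 of 15 alternatives, the exception being scaling by spike-in miR-14 alone (-0.64). The other 3 arms lost the fall under the spike-ins: with both, miR-223-3p was at 0.15, miR-142-3p at 0.14 and miR-142-5p at 0.14; with miR-427 alone they were at 0.12, 0.11 and 0.11; with miR-14 alone at 0.44, 0.42 and 0.43. None of these was called. Spike-in scaling together with guide RNA as a replicate block gave 0.15, 0.15 and 0.13, all called higher, and 337 higher and 17 lower of 354 called miRNAs. Library size alone took miR-223-3p to -0.10, not called. Leaving out 1 library gave -0.61 to -0.49 for miR-223-3p, -1.83 to -1.47 for miR-223-5p, -0.61 to -0.50 for miR-142-3p and -0.62 to -0.52 for miR-142-5p, all called. Means of the within-guide values, with library size alone, were -0.10 for miR-223-3p, -1.20 for miR-223-5p, -0.10 for miR-142-3p and -0.12 for miR-142-5p; with spike-ins they were 0.15, -0.94, 0.15 and 0.13, and with size factors (RLE) miR-223-3p was at -0.59. The count of called miRNAs was 236, against 150 with DESeq2, 145 with miR-14 scaling, 117 without knockdown replicate 1 and 140 without control replicate 2 (range over the 4 left-out libraries 117 to 195). It was 119 higher and 117 lower with TMM, 273 and 41 with library size, 186 and 8 with the spike-ins. The tilt was the other way with RLE (108 higher and 128 lower) and with DESeq2 (48 and 102). DESeq2 gave an adjusted p for 401 miRNAs.

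The miR-223 arm ratio stayed at -1.09 with the depth-dependent variance, with the 10 CPM filter and with guide RNA as a replicate block. It was called in each (adjusted p = 2.50e-06, 0.0037 and 0.0064, limma), with an SE of 0.14, 0.18 and 0.30 in the same order. With 1 added to each count it was -1.09 and not called (limma, adjusted p = 0.0667). Leaving out 1 library gave -1.30 to -0.88 for it, never called, and -0.12 to 0.09 for miR-142. Hairpins called numbered 0, then 13 with the depth-dependent variance, 6 with the 10 CPM filter, 9 with the block and 3 with 1 added to each count. The miR-223 to miR-142 ratio was 99.9% of control for 3p arms (96.2% to 103.7% leaving out 1 library) and 47.2% for 5p arms. With TMM the block changed no call of the 4 arms. Causes of these shifts were not tested. The 5p share of miR-223 rests on 781 to 1740 reads of miR-223-5p per library.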
